A study of Mus musculus with 22 samples.

Results

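Rax, Lhx2, Six3, Six6, Nkx2-1, Sox2 and Sox9 are 7 transcription factor genes of tanycytes and of the developing hypothalamus, and they were followed here by symbol through 2 tables of single-cell counts. All 7 were found in both tables, among 20668 genes in the nuclei table and 16304 genes in the whole-cell table. The study asked how the hypothalamus of diabetic mice responded to fibroblast growth factor 1 (FGF1). All 22 mice were male ob/ob mice, which lack functional leptin, and were 11 weeks old. Each received a single intracerebroventricular (icv) injection of 3 µg FGF1 or of vehicle, and vehicle mice were given only as much food as FGF1 mice ate (pair-feeding), so every comparison is between fed-matched obese animals and none includes a lean animal. Nuclei (snRNA-seq) were profiled on Day 1 in 3 FGF1 and 3 vehicle mice and on Day 5 in 2 and 2. Whole cells (scRNA-seq) came from a separate Day 5 cohort of 6 and 6. Each library held the hypothalamus of 1 mouse.

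Tanycytes are elongated cells that line the floor and lower walls of the third ventricle, contact the cerebrospinal fluid, and keep features of neural progenitors in the adult. Rax is a homeodomain factor required for eye and hypothalamus formation and is retained in adult tanycytes, and Lhx2 is a LIM homeodomain factor that acts with Rax to maintain tanycyte identity. Six3 and Six6 are related homeodomain factors of the sine oculis family, active in the anterior forebrain, eye and pituitary, Nkx2-1 patterns the ventral hypothalamus, and Sox2 and Sox9 are high-mobility-group factors of neural stem cells and glia.

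On build GRCm38 (GENCODE vM21), the genes other than Rax span chr2:38339281-38369733 (Lhx2, plus strand), chr17:85613608-85629302 (Six3, plus), chr12:72939892-72944899 (Six6, plus), chr12:56531958-56536908 (Nkx2-1, minus), chr3:34650405-34652461 (Sox2, plus) and chr11:112782224-112787760 (Sox9, plus). Six6 and Nkx2-1 thus lie on the same chromosome.

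There were 24965 nuclei and 54890 whole cells in the tables. Library totals ran from 2721087 to 16345981 unique molecular identifiers (UMIs) in nuclei and from 2652897 to 11866269 in whole cells. FGF1 mouse 10 stood apart in the whole cells with a median of 2090 UMIs per cell. In Day 1 nuclei depth followed treatment, since the median nucleus held 2029 to 2816 UMIs in FGF1 libraries and 3178.5 to 3776 in vehicle libraries. With every nucleus thinned to 1 fixed number of UMIs, Sox9 in astrocyte nuclei was at 1.18 on the log2 scale (FDR = 0.397) and the count of genes called fell from 323 to 60 in tanycytes, 277 to 70 in ependymal cells and 94 to 45 in astrocytes. Barcode sequences found in more than 1 library numbered 318 in nuclei and 1791 in whole cells. Nuclei carried the deposited cell types. Whole cells carried only cluster numbers and were named here from marker genes, so they are called tanycyte-like, astrocyte-like and so on. Values are counts per 1000000 UMIs (CPM) of the summed counts of 1 cell type in 1 mouse. Beside a test, only the UMIs of the genes kept in that test were counted in the total. A false discovery rate (FDR) below 0.05 over all genes tested in a cell type was taken as passing.

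Clusters 0, 7 and 10 of the whole cells were tanycyte-like. Of 10 tanycyte markers, cluster 0 met 3 (Col23a1, Crym and Gpr50), cluster 7 met 5 and cluster 10 met 7. Rax was among those met by clusters 7 and 10, so its level there is no check of the name, and without it 4 and 6 markers remained. Dio2, Scn7a and Col25a1 were met in cluster 10 and in neither of clusters 0 and 7. Ependymal-like cells were cluster 6, and astrocyte-like cells were clusters 1 and 4. The levels that follow describe vehicle mice and carry no test, since the clusters were defined on the same cells.

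Rax and Lhx2 stood highest in the 3 tanycyte-like clusters. Rax averaged 97.9 ± 35.4 CPM in cluster 10, 97.7 ± 24.4 in cluster 7 and 75.2 ± 20.2 in cluster 0 (SD, n = 6 mice), and these ranges overlapped. The next level was 12.3 ± 11.9 CPM in astrocyte-like cluster 4. Lhx2 had the same 3 clusters on top in a different order, with 196 ± 63.0 CPM in cluster 7, 180 ± 37.0 in cluster 10 and 150 ± 29.6 in cluster 0. Its next level was 19.3 CPM in cluster 13 (n = 4 mice), the vascular and leptomeningeal-like cells. Lhx2 was itself among the 10 leading genes of cluster 0. Over the 17 clusters with at least 100 cells and at least 10 cells in some vehicle mouse, the genes with patterns most like that of Rax were Col23a1 (Pearson r = 0.953), Cpa4 (0.936) and Crym (0.934). Those most like Lhx2 were Kctd14 (0.942), Slit2 (0.942) and Crym (0.939), and the r of Rax with Lhx2 was 0.928. These correlations are across clusters that share libraries and describe the pattern only.

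The means of Six3 and Six6 were graded over the tanycyte-like clusters, falling from cluster 10 to cluster 7 to cluster 0. Those of Rax and Nkx2-1 had the same order with smaller steps. Six3 averaged 517 ± 63.9 CPM in cluster 10, with every vehicle mouse there above every vehicle mouse in cluster 7, which averaged 233 ± 65.4. Cluster 0 followed at 125 ± 38.0 CPM and astrocyte-like cluster 4 at 50.7 ± 16.5. Six6 averaged 73.0 ± 63.5 CPM in cluster 10, 28.0 ± 16.3 in cluster 7 but only 3.13 ± 2.05 in cluster 0, beside 3.46 in astrocyte-like cluster 4. Its ranges over mice in clusters 10 and 7 overlapped, at 21.1 to 195 and 8.82 to 55.2 CPM. Six6 was itself among the 10 leading genes of cluster 10. The genes most like Six3 were Frzb (r = 0.896), 4930447C04Rik (0.893) and Dio2 (0.881), and those most like Six6 were 4930447C04Rik (0.871), Evpl (0.859) and Arl6ip1 (0.823). 4930447C04Rik overlaps Six6 on the opposite strand. Six3 against Six6 gave r = 0.800.

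Six3 and Six6 had their highest whole-cell mean in cluster 10, as did Rax and Nkx2-1. In the sequences below, the letters CCAAT or their reverse complement ATTGG, a common proximal promoter element, are in capitals. The 250 bases before the start sites of Six3 and Six6 are shown because this related pair shared its highest whole-cell cluster. They are RefSeq sequences from build GRCm38.p6, plus strand, at chr17:85620584-85620833 for Six3 and chr12:72939632-72939881 for Six6, and the Six3 start used there lies inside the longer GENCODE span.
Six3: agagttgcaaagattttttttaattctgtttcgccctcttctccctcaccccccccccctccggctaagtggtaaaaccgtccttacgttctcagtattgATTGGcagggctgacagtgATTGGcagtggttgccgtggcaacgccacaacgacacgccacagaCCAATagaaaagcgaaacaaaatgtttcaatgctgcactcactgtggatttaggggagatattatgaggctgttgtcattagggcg
Six6: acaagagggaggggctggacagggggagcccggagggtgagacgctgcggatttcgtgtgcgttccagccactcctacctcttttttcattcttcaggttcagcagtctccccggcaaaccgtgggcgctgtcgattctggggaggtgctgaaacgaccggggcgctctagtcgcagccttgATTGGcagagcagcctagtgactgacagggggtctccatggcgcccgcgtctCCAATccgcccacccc
Six3 held 3 matches, on both strands, and Six6 held 2, one on each strand. Of 32851 mouse promoters of this length, 33.8% held at least 1 match, 10.1% held 2 or more and 2.79% held 3 or more. Sox2 had 1 match, and Lhx2 and Nkx2-1 had 0. A match is a description of the letters and not a binding site.

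Nkx2-1 reached 73.5 ± 47.4 CPM in cluster 10, 54.4 ± 25.6 in cluster 7 and 44.0 ± 16.3 in cluster 0, and ependymal-like cluster 6 followed at 35.7 ± 9.85. The smooth muscle-like cluster 19 lay among them at 51.9 ± 73.5 in only 2 mice. None of these neighbours differed beyond the spread over mice. Its most similar genes were Mgst1 (r = 0.943), Gm29508 (0.925) and Gstm1 (0.924).

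Sox2 and Sox9 had a wider distribution and were highest in ependymal-like cells. Sox2 averaged 470 ± 57.1 CPM in cluster 6, 372 ± 101 in the committed oligodendrocyte precursor-like cluster 9, 320 ± 22.0 in tanycyte-like cluster 0 and 308 in astrocyte-like cluster 4. Sox9 averaged 957 ± 137 CPM in cluster 6, 818 ± 172 in cluster 10, 741 in cluster 4, 700 ± 59.2 in cluster 0, 645 in cluster 7 and 567 in astrocyte-like cluster 1. Genes with patterns like that of Sox2 included Pacrgl (r = 0.887) and Spag1 (0.880), and genes most like Sox9 were Mt2 (0.977), Tmem47 (0.969) and Mgst1 (0.947). The heat map of levels by cluster places the 5 homeodomain genes mainly over the tanycyte-like clusters, with Nkx2-1 also in ependymal-like cells, and the 2 SOX genes across ependymal-like, tanycyte-like and astrocyte-like clusters.

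**Figure D1:**
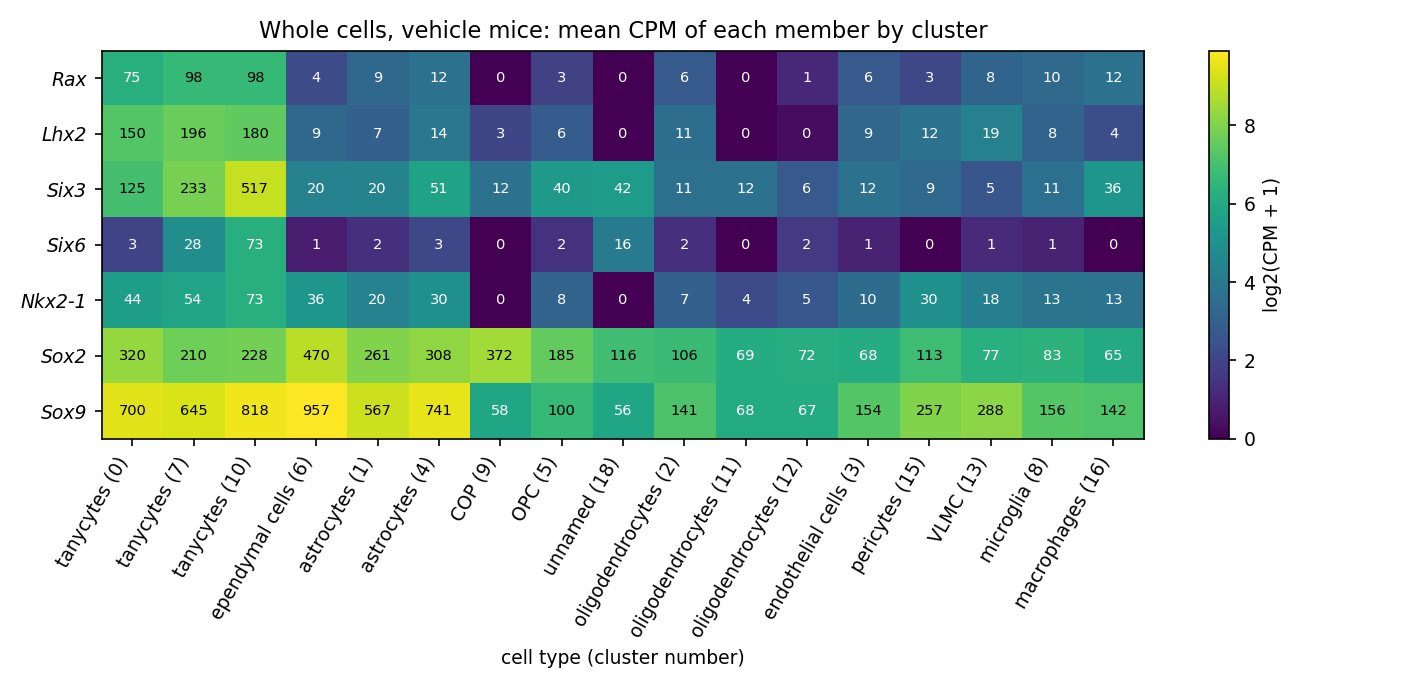
Mean level of the 7 genes (rows) in 17 whole-cell clusters (columns) of the vehicle mice (6 per cluster, 4 in clusters 13, 16 and 18); each cell prints the mean CPM and its colour is log2(CPM + 1). Rax, Lhx2 and Six3 are highest in tanycyte-like clusters 0, 7 and 10, Six6 is highest in cluster 10, and Sox2 and Sox9 are highest in ependymal-like cluster 6.

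In nuclei, tanycytes again held the highest mean of Rax (41.3 ± 24.7 CPM, SD, n = 4 vehicle mice with at least 10 nuclei) and of Lhx2 (55.0 ± 17.0), with every mouse above the next type for Lhx2, Glu4 neurons at 16.5. Six3 averaged 81.8 ± 17.5 CPM in tanycytes and 69.8 ± 47.4 in ependymal cells. Six6 was highest in a neuron type, n16.Rgs16/Vip, at 27.1 ± 15 CPM, with tanycytes at 15.7 ± 20.4 ranked 7, and every neighbour in that order overlapped with the next. Six3 was also detected in that neuron type, at 29.2 CPM. Nkx2-1 was at 37.4 ± 7.96 CPM in tanycytes and at 43.9 in Pmch neurons, the latter from only 2 UMIs in 11 nuclei of 1 mouse. Sox2 averaged 118 ± 33.6 CPM in ependymal nuclei, 73.6 ± 18.5 in astrocytes and 72.3 ± 47.7 in tanycytes, and Sox9 211 ± 99.8, 118 ± 34.6 and 128 ± 51.9. Over 23 deposited labels of nuclei, not all of them mapped types, the r of Rax with Lhx2 was 0.803 and that of Six3 with Six6 was 0.447. The genes most like Rax were Wfikkn2 (0.920), Nes (0.850) and Ntrk2 (0.829), those most like Lhx2 were D930032P07Rik (0.820), Pla2g16 (0.780) and Crb2 (0.775), and those most like Sox9 were Mapk4 (0.921), Fxyd1 (0.919) and Gm4477 (0.904).

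In whole-cell tanycyte-like cells on Day 5, Rax was lower in FGF1 than in vehicle mice and no other of the 7 genes passed the test. In the 6 FGF1 mice Rax was at 31.3 CPM at the lowest, 51.2 at the median and 68.3 at the highest. In the 6 vehicle mice it was at 59.5, 84.8 and 97.0 CPM. In FGF1 mice 4 of 6 values lay below all vehicle values and the other two lay within the vehicle range, so the groups overlapped. Rax was 1.57-fold lower (log2 fold change −0.65 ± 0.18 SE, edgeR quasi-likelihood FDR = 0.0436), on 795 UMIs in FGF1 and 646 in vehicle mice. Within each of the 6 batches given in the deposited metadata, of 1 FGF1 and 1 vehicle mouse each, Rax was lower in the FGF1 mouse in 6 of 6. Thus 1 of 7 members was called, where 5.08% of the 10494 genes tested were called, and the median log2 fold change was −0.02 over the members and −0.01 over all genes tested. With batch as a term the change was −0.68 (FDR = 0.00179). The call was lost without the filter on low counts (FDR = 0.0529), within the quality limit stated for whole cells (FDR = 0.0518), and without any 1 of vehicle mice 20, 25, 27 and 29 or FGF1 mice 6, 7, 10 and 36, with FDR values from 0.0160 to 0.126 and log2 changes from −0.51 to −0.74 over the 12 mice left out in turn.

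**Figure D2:**
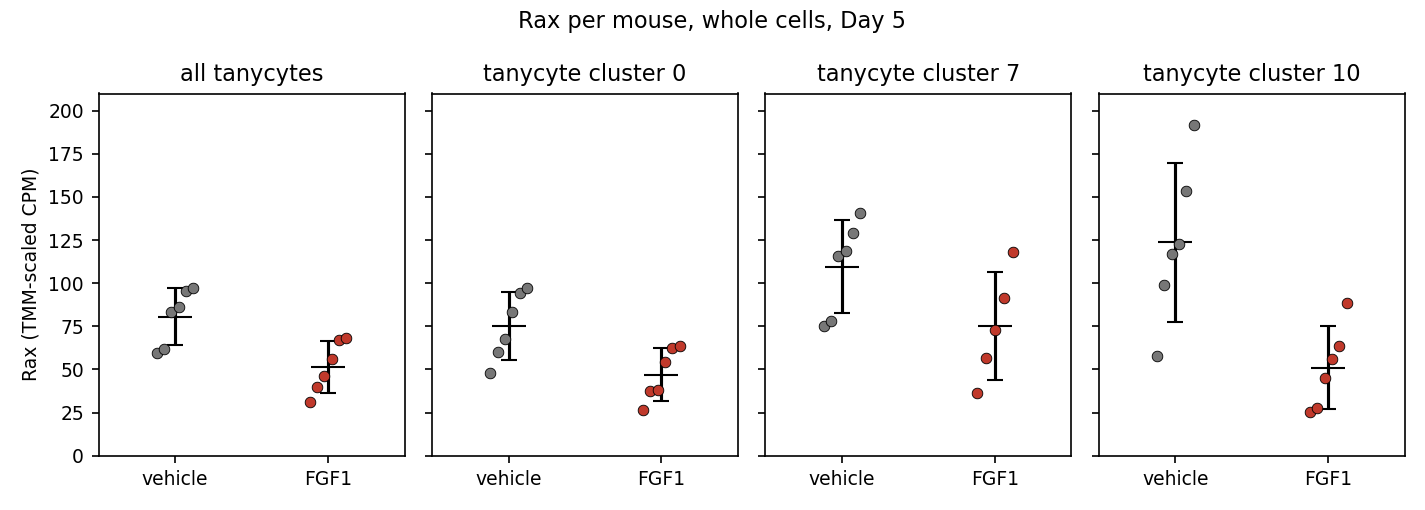
Rax in whole cells on Day 5, in CPM scaled within each comparison (y axis, from 0), for all tanycyte-like cells and for clusters 0, 7 and 10; each point is 1 mouse and bars are the mean ± SD of 6 mice per group (5 FGF1 mice in cluster 7). FGF1 points sit lower in all 4 panels and overlap with vehicle points in each.

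The 3 tanycyte-like clusters were examined one by one, since FGF1 and vehicle mice contributed different shares of their cells to each. In cluster 10, FGF1 mice were at 25.5, 50.4 and 88.7 CPM (lowest, median, highest) and vehicle mice at 57.6, 120 and 192. Rax there was 2.13-fold lower (log2 −1.09 ± 0.30, FDR = 0.0463, lower in 6 of 6 batches), the only 1 of 7 members called, with 2.13% of 2159 genes called. The 2 ranges overlapped between 57.6 and 88.7 CPM.

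In cluster 0, Rax was at 26.3, 46.3 and 63.7 CPM in FGF1 and 47.9, 75.5 and 97.3 in vehicle mice, with a log2 change of −0.68 ± 0.20 that missed the threshold (FDR = 0.0564) and was lower in 6 of 6 batches. In cluster 7, where FGF1 mouse numbers fell to 5, it was at 36.3, 73.1 and 118 CPM against 74.9, 117 and 141, with a log2 change of −0.65 ± 0.29 (FDR = 0.283), lower in 4 of 5 batches. Of 6 members tested in each, 0 were called by edgeR, or by DESeq2, in cluster 0 (background 5.27%) and 0 in cluster 7 (background 1.94%). At an unadjusted p below 0.05 there was 1 member in each, beside 1863 of 9441 genes in cluster 0 and 636 of 4027 in cluster 7. With batch as a term both passed, at −0.72 (FDR = 0.00367) in cluster 0 and −0.80 (FDR = 0.0220) in cluster 7, and cluster 10 was at −1.35 (FDR = 0.0127). For Rax in cluster 10, DESeq2 gave a log2 change of −1.17 and no adjusted p. The cluster 10 call was lost without the filter on low counts (FDR = 0.0620) and in 9 of 12 fits that each left out 1 mouse, those without vehicle mice 20, 22, 25, 27 and 29 and FGF1 mice 6, 10, 28 and 36. Cluster 0 passed in 4 of those 12, without vehicle mice 22 and 35 and FGF1 mice 21 and 28, and cluster 7 in 0 of 11.

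Markers of another cell type moved alongside Rax in the tanycyte-like cells. The summed level of 7 astrocyte markers was 1496 to 2163 CPM in FGF1 and 2392 to 3932 in vehicle mice, without overlap, with 4 of the 7 lower by the same test and none at 0 in either group. In cluster 10, 3 of 5 tested astrocyte markers were lower (median log2 −1.05), with sums of 695 to 1079 CPM in FGF1 and 1171 to 2216 in vehicle mice, against 4 of 7 in cluster 0 (median −0.71) and 1 of 6 in cluster 7 (median −0.26). Of 3 neuron markers tested in all tanycyte-like cells, 1 was lower, and of 3 markers of committed oligodendrocyte precursors tested, 1 was higher (5 markers summed to 66.6 to 111 CPM in FGF1 and 49.0 to 101 in vehicle mice, overlapping). Over 9 tanycyte markers other than Rax the sum was 2288 to 3158 CPM in FGF1 and 1982 to 2479 in vehicle mice, with 1 of 9 higher (Gpr50, log2 0.50, FDR = 0.0407) and 0 lower. The part of astrocyte RNA in the level of Rax was not tested. Raxos1, which overlaps Rax on the opposite strand, had only 40 UMIs in the FGF1 and 28 in the vehicle tanycyte-like cells and did not pass the filter on low counts.

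Nuclei held too few Rax UMIs for a test. On Day 1 in tanycyte nuclei the FGF1 mice were at 22.7, 0 and 0 CPM, from 6, 0 and 0 UMIs, and the vehicle mice at 36.1, 84.2 and 17.9 CPM, from 4, 9 and 1 UMIs. The value of 22.7 lay inside the vehicle range and the other two held no UMI. On Day 5 the FGF1 mice were at 27.4 and 8.98 CPM and the vehicle mice at 0 and 60.1, from 9 and 14 vehicle nuclei, and a group could not be tested at the minimum of 10 nuclei per mouse.

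Lhx2 was higher in whole-cell astrocyte-like cells of FGF1 mice on Day 5 and did not pass the test in tanycyte-like cells, where its level was far above that in astrocyte-like cells. In astrocyte-like cells the FGF1 mice were at 13.5, 18.4 and 28.2 CPM (lowest, median, highest), from 8 to 34 UMIs each, and the vehicle mice at 5.59, 7.83 and 10.9 CPM, from 3 to 19 UMIs each. Every FGF1 mouse lay above every vehicle mouse. The difference was 2.35-fold (log2 1.23 ± 0.24, edgeR FDR = 0.000782), in 6 of 6 batches, and Lhx2 was the 1 of 6 members tested that was called, where 12.6% of 9830 genes were called. It passed under all 18 alternatives (the minimum of 20 cells per mouse removed no mouse here, so that fit is the same as the one reported), with log2 changes from 1.13 to 1.34. In tanycyte-like cells Lhx2 was at 150, 162 and 205 CPM in FGF1 and 140, 158 and 186 in vehicle mice, ranges that overlapped almost wholly (log2 0.07 ± 0.11, FDR = 0.785).

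The same direction of the median was seen for Lhx2 in other whole-cell types, each below the threshold. In unscaled CPM, the median was 15.2 in FGF1 and 5.54 in vehicle mice in oligodendrocyte precursor-like (OPC-like) cells, 16.9 and 8.98 in endothelial-like cells, 13.3 and 8.79 in oligodendrocyte-like cells, and 9.84 and 7.14 in microglia-like cells. None of these groups was separate. In oligodendrocyte-like cells, where Lhx2 passed the filter, the log2 change was 0.85 (FDR = 0.200), and 0 of 4 members were called by edgeR (1 at an unadjusted p below 0.05, as were 1542 of 8438 genes, background 2.25%). In cluster 2, the largest oligodendrocyte-like cluster, Lhx2 was at 13.2, 23.7 and 67.6 CPM in FGF1 and 2.42, 11.1 and 22.4 in vehicle mice, overlapping (log2 1.41 ± 0.44, FDR = 0.164). Of 3 members tested in cluster 2 by edgeR, 0 were called and 3 had an unadjusted p below 0.05 (log2 0.35 to 1.41). The share over all genes in cluster 2 is not reported here. Without the filter the change was 1.2 in OPC-like (FDR = 0.118), 0.92 in endothelial-like (FDR = 0.308) and 0.35 in microglia-like cells (FDR = 0.907). Within the 2 astrocyte-like clusters taken apart it was 0.11 in cluster 1 (FDR = 0.963) and 0.81 in the Gfap-rich cluster 4 (FDR = 0.547), with medians of 9.05 against 6.72 CPM in cluster 1 and 22.6 against 10.3 in cluster 4. Lhx2 passed the filter in neither cluster. Its UMIs were few, with 15 in FGF1 and 65 in vehicle mice in cluster 1 and 105 and 12 in cluster 4. Microglia-like cells held 14 and 11. Such totals limit what these fits could detect. Cluster 1 drew 16.2% and cluster 4 83.0% of its cells from FGF1 mice.

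Of 7 tanycyte markers tested in astrocyte-like cells, 3 were higher in FGF1 mice. The sum of 9 tanycyte markers in astrocyte-like cells was 106 to 281 CPM in FGF1 and 81.7 to 117 in vehicle mice, in endothelial-like cells 119 to 405 against 95.0 to 192, and in microglia-like cells 76.5 to 395 against 19.7 to 184, and the groups overlapped in each. Gpr50, an orphan receptor and tanycyte marker, had medians of 60.3 against 14.7 CPM in astrocyte-like, 56.8 against 22.2 in endothelial-like and 46.5 against 10.8 in microglia-like cells. Within the astrocyte-like clusters taken apart, its medians were 26.7 against 12.4 CPM in cluster 1 and 64.6 against 54.0 in cluster 4. Of the UMIs deposited for a mouse, tanycyte-like cells supplied a median of 36.1% in FGF1 (12.9 to 55.8%) and 21.2% in vehicle mice (8.02 to 26.6%). These UMIs leave out neurons, which the authors had removed. The part of tanycyte RNA in the astrocyte-like level of Lhx2 was not tested.

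**Figure D3:**
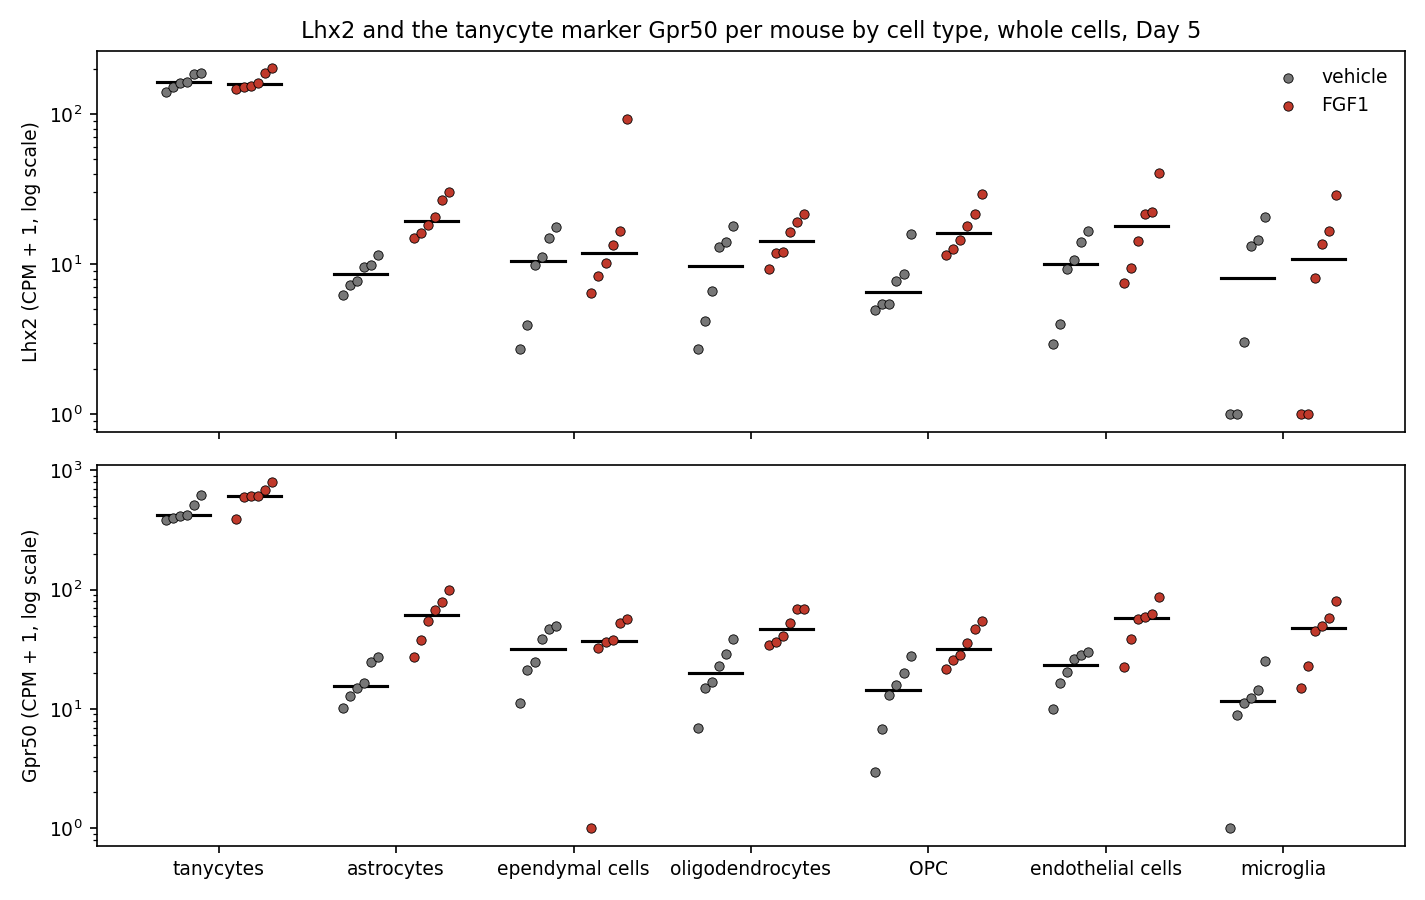
Lhx2 and Gpr50 in 7 whole-cell types on Day 5, as unscaled CPM + 1 on a log axis; each point is 1 mouse and each bar the median of a group. Lhx2 medians are 18.5 CPM in FGF1 and 7.65 in vehicle astrocyte-like cells and 156.6 and 161.9 in tanycyte-like cells, and Gpr50 medians are higher in FGF1 mice in all 7 types.

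In tanycyte nuclei on Day 1, Lhx2 did not pass the filter, with FGF1 mice at 30.2, 16.8 and 100.5 CPM and vehicle mice at 54.2, 103 and 71.8. In FGF1 mice 1 value lay inside the vehicle range and the other two lay below it, and Lhx2 was lower in FGF1 in 3 of 3 batches. On Day 5 the unscaled levels were 96.0 and 35.9 CPM in FGF1 and 60.8 and 45.1 in vehicle mice, with the vehicle mice between the FGF1 mice.

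Six3 did not pass the test in any cell type. In whole-cell tanycyte-like cells it was at 126, 167 and 357 CPM (lowest, median, highest) in FGF1 and 145, 199 and 235 in vehicle mice (log2 0.04 ± 0.25, FDR = 0.968), and FGF1 mice covered the whole vehicle range. In cluster 10, where Six3 was highest, the values were 378, 590 and 827 CPM against 530, 667 and 754 (log2 −0.17). In astrocyte-like cells the FGF1 mice were at 22.4, 37.9 and 62.0 CPM and the vehicle mice at 14.9, 26.1 and 30.1, with a log2 change of 0.49 ± 0.23 that missed the threshold (FDR = 0.171) and passed it only without FGF1 mouse 10 (log2 0.66, FDR = 0.0389). In tanycyte nuclei on Day 1 the FGF1 mice were at 94.4, 50.3 and 67.0 CPM and the vehicle mice at 99.4, 84.2 and 107.6, which overlapped, were lower in FGF1 in 3 of 3 batches and did not pass the filter.

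Six6 spread widely between mice of the same group. In tanycyte-like cells it was at 4.97, 21.3 and 70.0 CPM in FGF1 and 6.63, 10.2 and 59.5 in vehicle mice (log2 0.40 ± 0.79, FDR = 0.836), and the sign turned to −0.47 without FGF1 mouse 7. In cluster 10 it was at 46.1, 97.6 and 218 CPM against 26.3, 72.1 and 237 (log2 0.33 ± 0.55, FDR = 0.898). In the neuron nuclei that carried no mapped type, Six6 on Day 5 was at 2.14 and 1.26 CPM in FGF1 mice, from 9 UMIs each, and at 8.49 and 2.65 in vehicle mice, from 41 and 3 UMIs. Both FGF1 mice lay below both vehicle mice, but the change of −2.02 ± 0.56 missed the threshold (edgeR FDR = 0.401), and 0 of 6 members were called (1 at an unadjusted p below 0.05), as were 0 of 14599 genes (background 0%, 1453 genes at an unadjusted p below 0.05). On Day 1 Six6 was at −0.11 on the log2 scale in the same nuclei, where 0 of 5 members were called by edgeR (1 at an unadjusted p below 0.05) and 0 of 13681 genes (background 0%, 988 at an unadjusted p below 0.05).

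Nkx2-1 in tanycyte-like cells was at 36.3, 51.3 and 67.5 CPM in FGF1 and 37.7, 46.6 and 70.7 in vehicle mice (log2 −0.02 ± 0.16, FDR = 0.977), which overlapped almost completely. It was at −0.40 ± 0.24 in ependymal-like cells (FDR = 0.492) and −0.24 in astrocyte-like cells (FDR = 0.494). In tanycyte nuclei it did not pass the filter on Day 1, with FGF1 mice at 49.1, 8.38 and 0 CPM and vehicle mice at 45.2, 56.2 and 35.9, which overlapped, and FGF1 was lower in 2 of 3 batches. On Day 5 the unscaled levels were 27.4 and 15 CPM in FGF1, from 4 and 5 UMIs, and 30.4 and 45.1 in vehicle mice, from 1 and 3 UMIs, without overlap.

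Sox9 had its largest differences in nuclei, where no call was made. On Day 1 in tanycyte nuclei the FGF1 mice were at 381.5, 519.6 and 284.7 CPM and the vehicle mice at 189.8, 243.3 and 161.5. Every FGF1 mouse lay above every vehicle mouse, and Sox9 was 1.98-fold higher (log2 0.99 ± 0.37) in 3 of 3 batches, yet missed the threshold (FDR = 0.119). Of 2 members tested there, 0 were called by edgeR and 0 by DESeq2 (1 at an unadjusted p below 0.05, as were 830 of 3534 genes), where 9.14% of the genes were called.

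In astrocyte nuclei on Day 1, Sox9 was at 402.6, 319.4 and 247.1 CPM in FGF1 and 193.2, 143.2 and 117.5 in vehicle mice, again without overlap (log2 1.10 ± 0.46, FDR = 0.440, 3 of 3 batches). Here 0 of 2 members were called by edgeR and 0 by DESeq2 (1 at an unadjusted p below 0.05, as were 587 of 6063 genes), against a background of 1.55%. In ependymal nuclei it was at 536.3, 640.6 and 581 CPM against 563.3, 186.5 and 486.8, which overlapped (log2 0.50 ± 0.36, FDR = 0.374; 0.13 without vehicle mouse 2 and 0.79 without vehicle mouse 1), so 0 of 1 member tested was called by edgeR or DESeq2 (0 at an unadjusted p below 0.05, background 19.0%). On Day 5, Sox9 in astrocyte nuclei was at 172.9 and 151.1 CPM in FGF1 and 91.1 and 105.9 in vehicle mice, also without overlap (log2 0.74 ± 0.37, FDR = 0.397). There 0 of 3 members were called by edgeR and 0 by DESeq2 (0 at an unadjusted p below 0.05, background 0.625%). The Day 5 effect minus the Day 1 effect was −0.36 ± 0.60 for Sox9 in astrocyte nuclei (FDR = 0.947) and did not pass for any of 3 members, with 0 of 8872 genes called in that test by edgeR (background 0%, 689 at an unadjusted p below 0.05). In unmapped neuron nuclei on Day 1, Sox9 was low, at 10.5 to 13.6 CPM in FGF1 and 5.41 to 8.02 in vehicle mice, without overlap (log2 0.73, FDR = 0.686). In Day 5 tanycyte nuclei, too few to test, the unscaled levels of Sox9 were 151 and 138 CPM in FGF1 and 122 and 60.1 in vehicle mice. The groups did not overlap, but the vehicle values came from only 9 and 14 nuclei. These nuclei comparisons rest on 2 or 3 mice a group, and the share of all genes without overlap was not computed. A lack of overlap was not particular to Sox9. In Day 5 astrocyte nuclei other members also lay wholly above or below the vehicle mice. Only 3 of the 7 members passed the filter on low counts there.

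Ependymal markers differed between the groups in the same Day 1 tanycyte nuclei. The sum of 6 ependymal markers was 75.6 to 100 CPM in FGF1 and 302 to 535 in vehicle mice, with 1 of 2 tested lower, and the sum of 9 tanycyte markers other than Rax was 1583 to 3667 against 2944 to 3744, with 1 of 7 tested lower. The neuron markers summed to 4759 to 7409 CPM against 5383 to 6817, overlapping, with 0 of 3 tested higher or lower. Of 7 astrocyte markers tested, 0 were higher or lower (median log2 −0.46). The part of other cells in the Sox9 level was not tested.

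**Figure D4:**
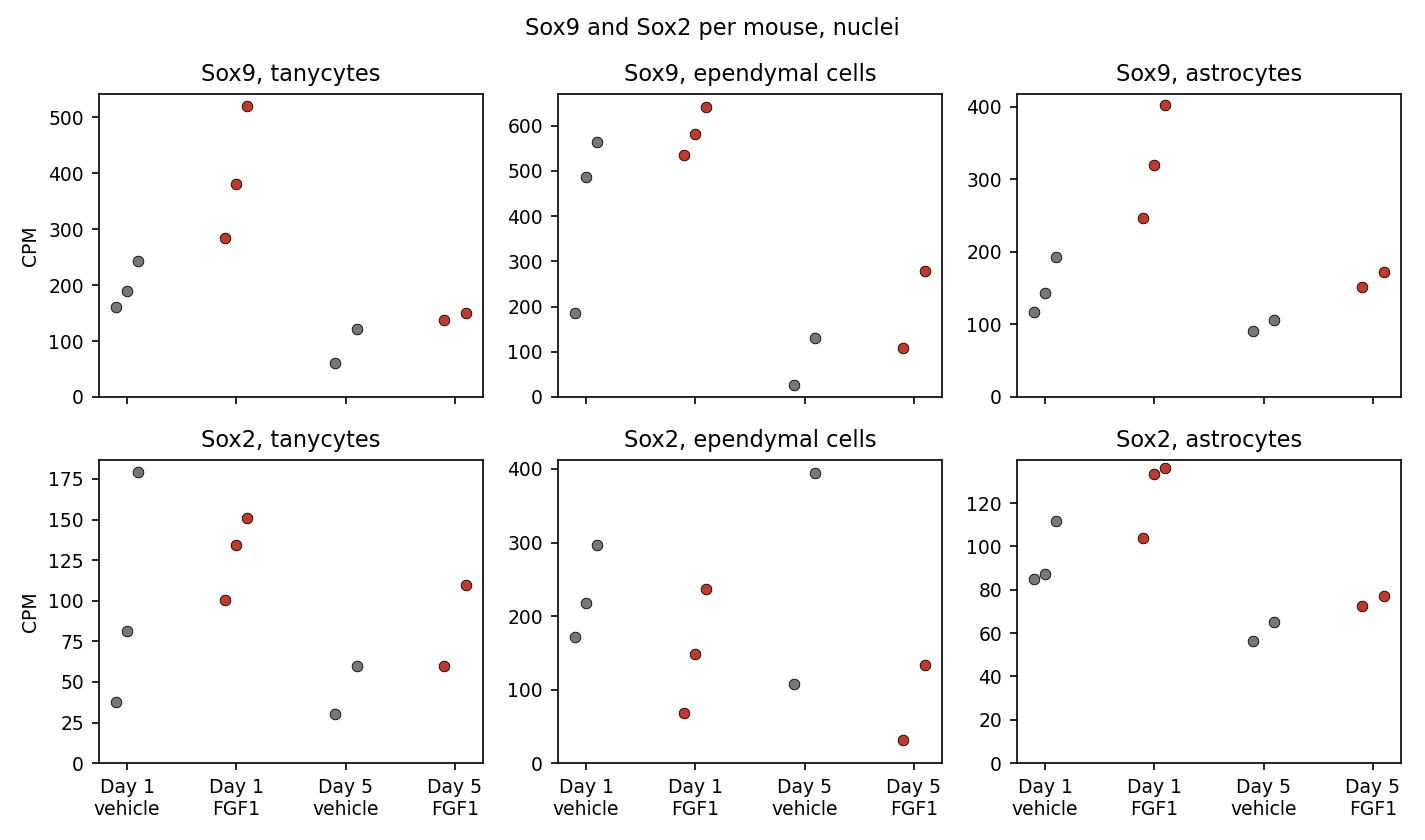
Sox9 and Sox2 per mouse in tanycyte, ependymal and astrocyte nuclei on Day 1 (3 FGF1 and 3 vehicle mice) and Day 5 (2 and 2), in CPM on a y axis from 0; Day 5 tanycyte and ependymal points are unscaled CPM, since those cells were too few to test. Heights of points cannot be compared between the days, since the CPM were scaled differently. Sox9 in FGF1 mice lies above all vehicle mice in tanycytes and astrocytes on Day 1 and in both on Day 5. The Day 5 vehicle tanycyte points rest on only 9 and 14 nuclei.

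In whole cells on Day 5 Sox9 did not pass the test in any type. Tanycyte-like cells were at 570, 667 and 775 CPM in FGF1 and 553, 726 and 789 in vehicle mice (log2 −0.05 ± 0.11, FDR = 0.841), and astrocyte-like cells differed by 0.14 (FDR = 0.419). In ependymal-like cells the FGF1 mice were at 557, 831 and 944 CPM and the vehicle mice at 905, 998 and 1192, overlapping, with a log2 change of −0.29 ± 0.14 (FDR = 0.361). Of 3 members tested in ependymal-like cells, 0 were called by edgeR and 0 by DESeq2 (1 at an unadjusted p below 0.05), where 1.28% of 6734 genes were called (907 at an unadjusted p below 0.05). Nuclei and whole cells came from different cohorts and preparations, and the difference between their Sox9 effects was not tested.

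Sox2 did not pass in any type. It was at 220, 254 and 310 CPM in FGF1 and 258, 288 and 318 in vehicle tanycyte-like cells (log2 −0.14 ± 0.11, FDR = 0.511), and at 372, 432 and 676 against 430, 499 and 556 in ependymal-like cells (log2 −0.19, FDR = 0.625). In tanycyte nuclei on Day 1 it was at 151.1, 134.1 and 100.5 CPM in FGF1 and 81.3, 37.4 and 179.4 in vehicle mice (log2 0.58 ± 0.50, FDR = 0.534), with the highest value in a vehicle mouse, and the change was 0.09 without vehicle mouse 2 and 1.11 without vehicle mouse 3. In astrocyte nuclei on Day 1 it was at 136, 103.8 and 133.6 CPM against 111.9, 87.1 and 84.9, overlapping (log2 0.40, FDR = 0.935). On Day 5 it was at 72.7 and 77.1 against 65.1 and 56.5, without overlap (log2 0.27, FDR = 0.804).

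**Figure D5:**
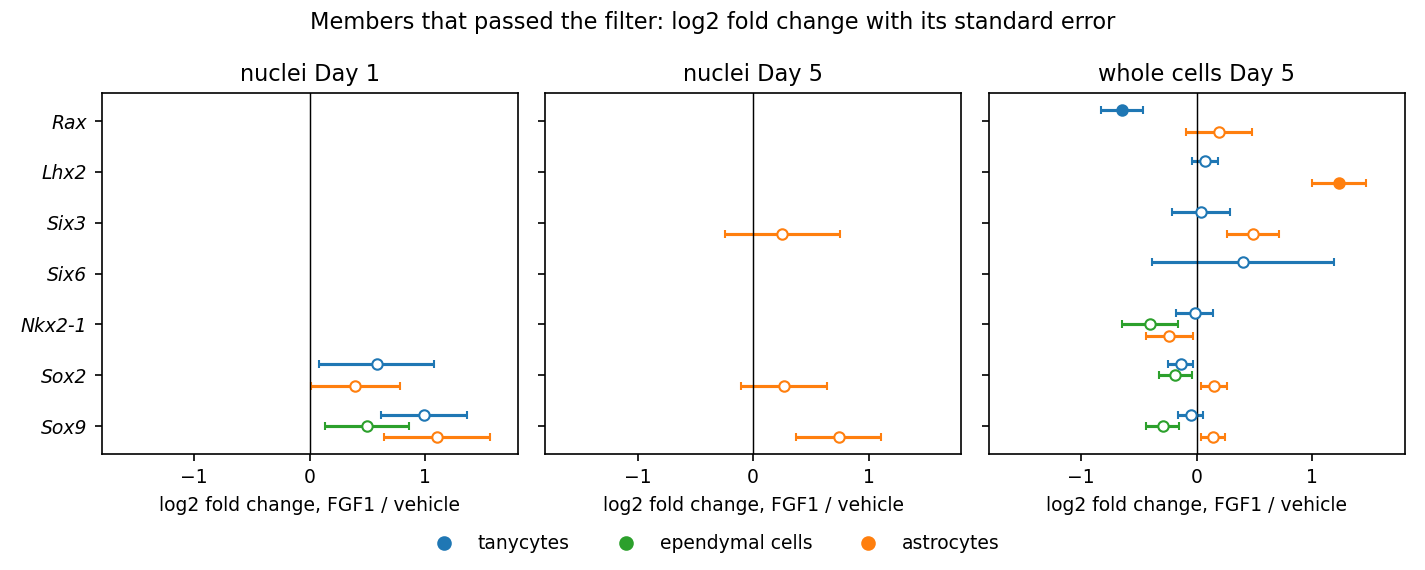
log2 fold change of FGF1 against vehicle ± SE for each of the 7 genes that passed the filter on low counts, in tanycytes, ependymal cells and astrocytes, for nuclei on Day 1, nuclei on Day 5 and whole cells on Day 5; filled points passed FDR below 0.05. Rax in tanycyte-like cells (−0.65) and Lhx2 in astrocyte-like cells (1.23) are the filled points.

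Related genes were read from lists chosen for these roles. Among 30 progenitor and glial transcription factors, 27 were tested in whole-cell tanycyte-like cells and 2 fell, Sox1 and Sox8, near the 5.08% of all genes called there. Sox1 was at 55.6 ± 14.4 CPM in FGF1 and 80.1 ± 14.3 in vehicle mice (SD, n = 6 each, log2 −0.57 ± 0.15, FDR = 0.0215), and Sox8 at 17.4 ± 2.35 against 27.4 ± 5.16 (log2 −0.60 ± 0.16, FDR = 0.0305). The Sox1 call was lost without vehicle mouse 20, 25 or 27 or FGF1 mouse 10, and that of Sox8 in 10 of 18 alternatives. The minimum of 20 cells per mouse removed no tanycyte-like sample, so that alternative is the same as the fit reported. The median over the list was −0.17. In cluster 0, Sox1 (−0.65), Sox8 (−0.61) and Gli3 (−0.88), named after their values were seen, were the 3 of 23 tested that fell, where 5.27% of all genes were called, and Lmo4 (0.46), Crym (0.55) and Gpr50 (0.44) were the genes of the other 3 lists that rose there. Of 26 hypothalamic neuron transcription factors 5 were tested and of 18 cofactors of LIM and sine oculis factors 12, with none called in either list over all tanycyte-like cells. Of 16 tanycyte identity genes 15 were tested and only Gpr50 rose, a call that held in 9 of 18 alternatives and was lost without any 1 of vehicle mice 20, 22, 25, 29 and 35 and FGF1 mice 7, 10, 21 and 36.

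In astrocyte-like cells the progenitor and glial list had 3 of 28 tested genes higher and 1 lower, near the 12.6% of all genes called in these cells. Foxj1, the ciliogenesis factor of ependymal cells, rose from 18.9 ± 3.24 to 33.8 ± 6.83 CPM (log2 0.81 ± 0.18, FDR = 0.00261) and passed in all 18 alternatives. Markers of other cells moved in the same astrocyte-like cells, with 2 of 4 tested ependymal markers higher (6 markers summed to 265 to 402 CPM in FGF1 and 195 to 363 in vehicle mice), 3 of 3 tested markers of committed oligodendrocyte precursors higher (168 to 243 against 98.5 to 123) and 3 of 4 neuron markers lower (147 to 314 against 259 to 500). Foxj1 is itself one of those ependymal markers, none of these markers was at 0, and their part in these levels was not tested. Hey1, a Notch target, rose by 0.58 on the log2 scale and passed in 15 of 18, failing without FGF1 mouse 6 or 7 or vehicle mouse 25, while Rfx4 (0.35) and Otx2 (−0.75) passed in 7 and 6. Of 4 neuron transcription factors tested, Nkx2-4 was higher (0.64) and Foxb1 (−1.0) and Nkx2-2 (−0.50) lower, and each passed in at most 8 of 18 alternatives. None of 10 cofactors was called. Among the tanycyte identity genes, Gpr50 (1.73), Frzb (1.61) and Crym (1.19) rose in every alternative that gave a value. All these astrocyte-like fits pooled clusters 1 and 4, which drew 16.2% and 83.0% of their cells from FGF1 mice. No gene of the 4 lists was called in ependymal-like cells.

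In Day 1 nuclei the cofactor and identity lists held the calls. Lmo3, a LIM-only protein that binds the LDB partners of LIM homeodomain factors, was at 60.5 ± 8.95 CPM in FGF1 and 207 ± 56.9 in vehicle tanycyte nuclei (SD, n = 3 each, log2 −1.8 ± 0.40, FDR = 0.0148), the 1 of 6 cofactors called (9.14% of all genes were called in these nuclei), and the call was lost with DESeq2, with batch as a term and without vehicle mouse 1 or 2 or FGF1 mouse 2. Ldb2, one of those LDB partners, was at 222 ± 28.3 CPM against 718 ± 138 in ependymal nuclei (log2 −1.69 ± 0.35, FDR = 0.00234), 1 of only 2 cofactors tested where 19.0% of all genes were called, and it was called in all 12 alternatives. In these ependymal nuclei the type's own markers also differed: 6 ependymal markers summed to 873 to 1489 CPM in FGF1 and 2750 to 3712 in vehicle mice, with 4 of 5 tested lower (median log2 −1.53), and 2 of 4 astrocyte markers tested were lower. None of either list was at 0, and their part in the levels of Ldb2 and Nes was not tested. Nes, the intermediate filament nestin, rose by 2.26 in tanycyte nuclei (FDR = 0.00812), by 3.43 in ependymal nuclei (FDR = 0.000543) and by 3.93 in astrocyte nuclei (FDR = 0.0151; background 1.55%), while Frzb fell by 2.15 in tanycyte nuclei (FDR = 0.0114). Nes was at 173 ± 34.6 CPM in FGF1 and 36.4 ± 8.56 in vehicle tanycyte nuclei. It was at 662 ± 275 against 58.3 ± 50.5 in ependymal nuclei and 56.9 ± 6.07 against 3.47 ± 3.28 in astrocyte nuclei. In both of these types the lowest vehicle value was 0. The tanycyte calls of Nes and Frzb were both lost without vehicle mouse 1 or 2, that of Nes also with DESeq2, and that of Frzb also with batch as a term and without FGF1 mouse 2. The astrocyte call of Nes was lost with batch as a term and without vehicle mouse 1 or 2 or FGF1 mouse 1. In those astrocyte nuclei the only 1 of 5 endothelial markers tested was also higher (log2 2.90), with summed levels of 87.1 to 213 CPM in FGF1 and 38.1 to 98.8 in vehicle mice and none at 0, and its part in the Nes level was not tested. None of the 12 progenitor and glial factors tested in tanycyte nuclei, of 10 in ependymal nuclei or of 19 in astrocyte nuclei was called. On Day 5 in astrocyte nuclei, none of the 4 lists had a call.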

How the data were processed

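The authors deposited 2 tables of raw UMI counts per gene and barcode (10x Genomics 3' v2 libraries, aligned to mm10/GRCm38 per the labels, with Cell Ranger 1.2 and Seurat named in the submitters' processing notes, and intronic reads counted for nuclei), with a metadata table for each, that of whole cells giving the percent of mitochondrial UMIs per cell as computed by the authors. They removed neurons from the whole cells and screened whole cells for doublets. No doublet caller was run here. For each mouse, counts were added up over the barcodes of a cell type, with at least 10 cells per mouse and 2 mice per group, and FGF1 was compared with vehicle by edgeR 4.0.16 (R 4.3.3; filterByExpr, TMM, robust quasi-likelihood F test, Benjamini-Hochberg adjustment over all genes tested). SE is the absolute log2 fold change divided by the square root of F. CPM printed beside a test are TMM-scaled within that comparison; levels across cell types are unscaled CPM. The fits were tested on simulated data with 1 fixed spread between mice and changes placed in well-counted genes. A true log2 change of 1 was recovered by edgeR for 87% of genes in whole-cell tanycyte-like and 82% in astrocyte-like cells. In nuclei it was recovered for 42% in Day 1 tanycytes, 17% in Day 5 astrocytes and 5% for the day difference in astrocytes. Changes of that size in nuclei could thus often be missed. Alternatives were DESeq2 1.42.0 with its size factors, RLE scaling in edgeR, no filter, at least 20 cells per mouse, nuclei thinned to 1 fixed number of UMIs each (Day 1; totals per mouse still differed), batch or the replicate number as a term, the stated quality limit (832 nuclei and 4382 cells above it) and leaving out each mouse. Whole-cell clusters were named where at least 3 markers of a type were met; cluster 18 met the OPC markers but was left unnamed because its oligodendrocyte markers were also high. The 7 genes were always named, as were the 3 genes most like each across cell types (Pearson r of log2(CPM + 1), clusters or types of at least 100 cells, genes reaching 20 CPM), genes overlapping a member, and, per list and fit, at most the 5 genes called with the largest change. Some genes that this rule names are not reported here. Members and lists were chosen with earlier results of these data known. Promoter entries were found for 5 of the 7 genes in the RefSeq table.

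In Day 1 nuclei, deviations from the group means were compared between FGF1 and vehicle mice by correlation. Mice of the same replicate number gave −0.03, −0.17 and 0.13 in tanycytes and −0.13, −0.41 and 0.42 in astrocytes. Mice of the same batch gave −0.25, −0.001 and −0.17 in tanycytes and −0.56, 0.07 and −0.49 in astrocytes. Mice of the same number were never in the same batch. With 3 mice a group, this check cannot tell whether the numbers pair the mice.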

Additional observations from a re-analysis of the deposited data

Results flagged for a closer look

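In 6 of 70 groups of 5 or 6 mice 1 mouse lay far from the rest, measured by its gap to the nearest mouse over the group's range, and about 1 in 20 would by chance. Six6 gave 3 of them. In vehicle tanycyte-like cells mouse 35 was at 59.5 CPM against 6.63 to 11.9 in the others (gap 0.900 of the range). The same mouse was at 237 CPM against 26.3 to 99.2 in cluster 10 (gap 0.654). In FGF1 tanycyte-like cells mouse 7 was at 70.0 CPM against 4.97 to 23.5 (gap 0.715). Lhx2 in cluster 7 was at 293 CPM in FGF1 mouse 21 against 177 to 209 (gap 0.721). Sox9 in cluster 0 was at 575.2 CPM in vehicle mouse 29 against 698 to 754 (gap 0.687). Sox2 in ependymal-like cells was at 676 CPM in FGF1 mouse 6 against 372 to 475 (gap 0.660), from 17 UMIs. No cause of these values was tested.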

How the results depend on the processing

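Of the members called, tanycyte-like cells went from 1 to 0 with no filter and 0 within the quality limit, and ranged from 0 to 1 when single mice were left out. Astrocyte-like cells ranged from 1 to 2, cluster 0 from 0 to 1 (1 with batch as a term), cluster 10 from 0 to 1 (0 with no filter; DESeq2 gave Rax no adjusted p there), and cluster 7 had 1 with batch as a term. Signs of log2 changes that had not passed turned in tanycyte-like cells for Six3 (−0.029 with batch as a term, −0.14 to 0.15 with single mice left out), Six6 (−0.47 to 1.5) and Nkx2-1 (0.011 with no filter, 0.0023 with DESeq2, −0.11 to 0.12), and for the day difference of Sox2 in astrocyte nuclei (−0.25 to 0.045). With single mice left out, signs also turned within clusters, for Lhx2 in clusters 0, 7 and 10 (−0.14 to 0.10), Nkx2-1 in clusters 0 and 10 (−0.21 to 0.28), and Sox2 and Sox9 in cluster 7 (−0.17 to 0.18). The cause was not tested. Over all genes the count called moved with the mouse left out from 203 to 925 (533 with all mice) in tanycyte-like cells, 30 to 151 (86) in ependymal-like cells and 831 to 1243 (1240) in astrocyte-like cells. In Day 1 nuclei it moved from 72 to 378 (323) in tanycytes, 175 to 291 (277) in ependymal cells and 0 to 116 (94) in astrocytes, and in Day 5 astrocyte nuclei from 13 to 904 (53). Under other settings it ran from 60 to 563, 70 to 403, 39 to 214 and 25 to 173 in these 4, and the day difference gave 0 to 152. With single mice left out it ran in clusters 0, 7 and 10 from 234 to 732 (498), 28 to 114 (78) and 30 to 63 (46).

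With the replicate block in Day 1 nuclei 0 members were called in tanycytes, ependymal cells and astrocytes, and Sox9 was at 0.99 in tanycytes (FDR = 0.170), 0.56 in ependymal cells and 1.10 in astrocytes, with Sox2 at 0.64 and 0.38 in tanycytes and astrocytes. Whether the numbers pair the mice is not known. Tanycyte and ependymal nuclei on Day 5 were too few to test; with at least 5 nuclei per mouse, Sox9 in tanycytes was at 0.79 on Day 5 (FDR = 0.706), a setting chosen after the data were seen, as was batch in Day 1 nuclei. Low UMI totals of Rax and Lhx2 in nuclei limit what could be detected there.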
